A study of Homo sapiens with 18 samples.

Results

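SLITRK3, BCHE, ARHGAP24, MYOC and GPM6A are 5 of the 28277 genes in the count table. They were selected on the normoxia libraries of this dataset, as the genes near absent in sgCtl cells and high in both XIST knockdown (KD) clones. All 5 passed the filter on low counts, and they passed it only through the KD groups, so that they had to differ from sgCtl. For the 5 genes, the normoxia values and all values against sgCtl below are therefore a description without a test. The tests are those between the clones in hypoxia and of hypoxia against normoxia. Their hypoxia libraries come from the same clones but did not enter that selection except through a minimum of 100 mean counts over all libraries. The normoxia libraries did enter that selection. The normoxia side of each test of hypoxia against normoxia was therefore selected, also where the responses of both clones are compared. How far this moved those values was not tested. When the 268 genes that were higher in both KD clones in normoxia, above the sgCtl range and over that minimum were ordered by the mean log2 fold change of both clones, the 5 genes came first, from 12.42 for SLITRK3 to 9.53 for GPM6A. The homeobox gene BARX2 was next, just outside, at 9.51.

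The libraries are RNA-seq of OVCAR3-KRAB, an ovarian cancer cell line that expresses dCas9-KRAB, a nuclease-dead Cas9 fused to a repressor domain that silences the promoter a guide RNA brings it to. The 6 groups of 3 libraries each are cells with a control guide directed to the Gal4 promoter (sgCtl) or with either of 2 guides to the XIST promoter (sgXIST7 and sgXIST9), kept in normoxia or for 24 h in 1% oxygen (hypoxia). All groups carry dCas9-KRAB and a guide vector with puromycin resistance. The study grew lines from single cells with the control guide as well as with the XIST guides. The KD lines were kept for their loss of XIST, the long noncoding RNA that coats and silences the inactive X chromosome. The sources used here do not give how many clones or cultures stand behind the 3 libraries of a group. Guide and clone cannot be told apart, in sgCtl as in the KD groups, and p-values measure only the spread between these libraries.

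The 5 genes are known for different roles. SLITRK3 is an adhesion protein of synapses with leucine-rich repeats, which binds receptor phosphatases of the LAR family on the facing cell. BCHE is butyrylcholinesterase, a secreted enzyme that hydrolyses choline esters. ARHGAP24, also called FilGAP, binds filamin A and switches off the small GTPase Rac. MYOC is myocilin, a secreted protein with an olfactomedin domain best known from the outflow tissue of the eye. GPM6A is the neuronal membrane glycoprotein M6A of the proteolipid family, which promotes filopodia and neurites.

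All 5 genes lie on autosomes, at 4 places (hg38, exons as listed in the count table). SLITRK3 (chr3:165186720-165197109, minus strand) and BCHE (chr3:165772904-165837423, minus strand) are neighbours on chromosome 3, with 575795 bases between them. ARHGAP24 (chr4:85475150-86002666, plus strand) and GPM6A (chr4:175632937-176002691, minus strand) lie far apart on chromosome 4. MYOC is at chr1:171635417-171652688, minus strand.

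RefSeq promoters (GRCh38.p14, from 250 bases before to 50 after a start) matched 4 of the 5 genes, without MYOC. Since the genes were on together in both KD clones and were then followed through hypoxia, the promoter at the most upstream RefSeq start of each is shown, at chr3:165197060-165197359 (SLITRK3), chr3:165837374-165837673 (BCHE), chr4:85474900-85475199 (ARHGAP24) and chr4:176002344-176002643 (GPM6A). Sequences read 5′ to 3′ on the gene's strand, and capitals mark each ACGTG or GCGTG on either strand, the core letters of the site bound by hypoxia-inducible factors.
SLITRK3: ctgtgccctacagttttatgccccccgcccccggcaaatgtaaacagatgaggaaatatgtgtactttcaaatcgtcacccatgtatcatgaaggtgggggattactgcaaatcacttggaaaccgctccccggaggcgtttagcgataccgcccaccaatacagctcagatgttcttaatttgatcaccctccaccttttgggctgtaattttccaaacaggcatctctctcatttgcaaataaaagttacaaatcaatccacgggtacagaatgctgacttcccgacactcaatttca
BCHE: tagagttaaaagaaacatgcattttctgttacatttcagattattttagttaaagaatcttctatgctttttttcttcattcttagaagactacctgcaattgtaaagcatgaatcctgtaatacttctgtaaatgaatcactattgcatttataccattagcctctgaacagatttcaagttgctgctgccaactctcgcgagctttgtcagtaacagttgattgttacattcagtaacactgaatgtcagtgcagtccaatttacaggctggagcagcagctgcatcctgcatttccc
ARHGAP24: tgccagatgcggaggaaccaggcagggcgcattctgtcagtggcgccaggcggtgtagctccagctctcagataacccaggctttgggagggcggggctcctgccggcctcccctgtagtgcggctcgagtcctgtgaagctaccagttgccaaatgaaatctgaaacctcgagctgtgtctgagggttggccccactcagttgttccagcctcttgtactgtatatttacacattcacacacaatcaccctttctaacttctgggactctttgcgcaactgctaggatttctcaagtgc
GPM6A: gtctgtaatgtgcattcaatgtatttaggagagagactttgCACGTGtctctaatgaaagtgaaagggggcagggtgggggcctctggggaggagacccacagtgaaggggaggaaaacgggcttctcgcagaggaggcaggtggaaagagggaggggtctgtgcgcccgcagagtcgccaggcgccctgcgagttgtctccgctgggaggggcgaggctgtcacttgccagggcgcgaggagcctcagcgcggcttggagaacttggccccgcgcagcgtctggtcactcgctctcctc

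ACGTG was found in the GPM6A window only, once on each strand within the same 6 letters. Over all 35116 RefSeq promoters of this length, 21.4% held ACGTG, 36.5% held GCGTG and 48.4% held at least 1 of these. At the second start of SLITRK3 (chr3:165196335-165196634) 1 ACGTG was found, and the other starts of ARHGAP24 and GPM6A held neither word. TATAAA was in the BCHE window, only on the strand opposite to the gene, and 11.5% of promoters held it. CCAAT was in those of SLITRK3 and BCHE, as in 34.6%. GGGCGG was in those of SLITRK3, with 2 matches on the strand opposite to the gene, and ARHGAP24, with 1, as in 45.0%. By the ratio of observed to expected CpG, the windows of SLITRK3 (0.657, 10 CpG) and GPM6A (0.656, 18 CpG) lay slightly above the median promoter (0.579, with a median of 14 CpG), and those of ARHGAP24 (0.436, 10 CpG) and BCHE (0.201, 2 CpG) below it. By the count of CpG, the SLITRK3 window lay below the median. These matches are letters in a window and say nothing of binding, and the counts do not tell which start was used.

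Library totals ranged from 11794375 to 24906936 counts. A limit of 3 counts in a library was worth 0.130 to 0.266 CPM (counts per 1000000 after TMM scaling, which corrects for differences in library composition), and it covers counting error only. XIST was at 242 to 867 CPM in the sgCtl libraries in normoxia, against 0.0436 to 0.222 CPM in sgXIST7 and 29.0 to 53.6 CPM in sgXIST9, so that the sgXIST9 cells kept measurable XIST (log2 fold change -3.41, SE 0.44, edgeR adjusted p = 1.9e-05). Of 10 genes known to rise in hypoxia, 8 rose in sgCtl, 9 in sgXIST7 and 9 in sgXIST9. Of 12 markers of serous ovarian carcinoma, EPCAM and KRT18 were abundant (group means of 160 to 243 and 140 to 219 CPM), but MUC16, KRT7, CDH1, SOX17 and WFDC2 never exceeded 4 counts in a library, and PAX8 group means were 1.51 to 4.55 CPM. Markers of endothelium summed to at most 0.893 CPM in a library.

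In sgCtl cells the 5 genes were at or near 0, in normoxia and in hypoxia. SLITRK3 and BCHE had 0 counts in each of the 6 sgCtl libraries. ARHGAP24 had 0 counts in the 3 normoxia libraries and 0, 2 and 1 in the 3 hypoxia libraries. MYOC had 0, 1 and 0 counts in normoxia and 1, 0 and 0 in hypoxia. GPM6A had a trace, with 4, 5 and 4 counts in normoxia and 3, 8 and 4 in hypoxia, or 0.295 ± 0.082 and 0.313 ± 0.111 CPM (SD, n = 3). No gene was called between hypoxia and normoxia in sgCtl (0 of 5 by edgeR and by DESeq2, and 0 with an unadjusted p under 0.05), while 11.3% of the 14938 genes tested rose. For SLITRK3 and BCHE, without a count in these libraries, there was nothing to test. For ARHGAP24 the log2 fold change was 3.36 with an SE of 3.11. The missing calls therefore add nothing to the counts above. At this depth, transcripts of SLITRK3 and BCHE were not detectable in sgCtl cells at either oxygen level.

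In the KD clones all 5 genes were well above that limit in each of the 12 libraries. In normoxia, the values that chose the genes, 4.67% of all genes tested were called higher in sgXIST7 than in sgCtl and 3.93% in sgXIST9. In hypoxia all 5 genes passed the thresholds in both clones (edgeR adjusted p under 0.01 and a log2 fold change above 1), as did 7.83% of all genes tested in sgXIST7 and 6.14% in sgXIST9. Since the genes had been chosen and filtered through the same clones, nothing is read from that count. Both comparisons use the same sgCtl libraries. For the 5 genes the fitted log2 fold changes had a median of 10.48 in sgXIST7 and 11.37 in sgXIST9, against -0.02 and -0.01 over all genes tested, and the fitted value of a gene with no counts in sgCtl depends on the small count added in the fit. Of the other 263 genes of the 268, 200 were still called higher in hypoxia in sgXIST7 (76.0%) and 207 in sgXIST9 (78.7%). In bulk RNA, more cells that hold a transcript and more transcript per cell cannot be told apart.

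**Figure D1:**
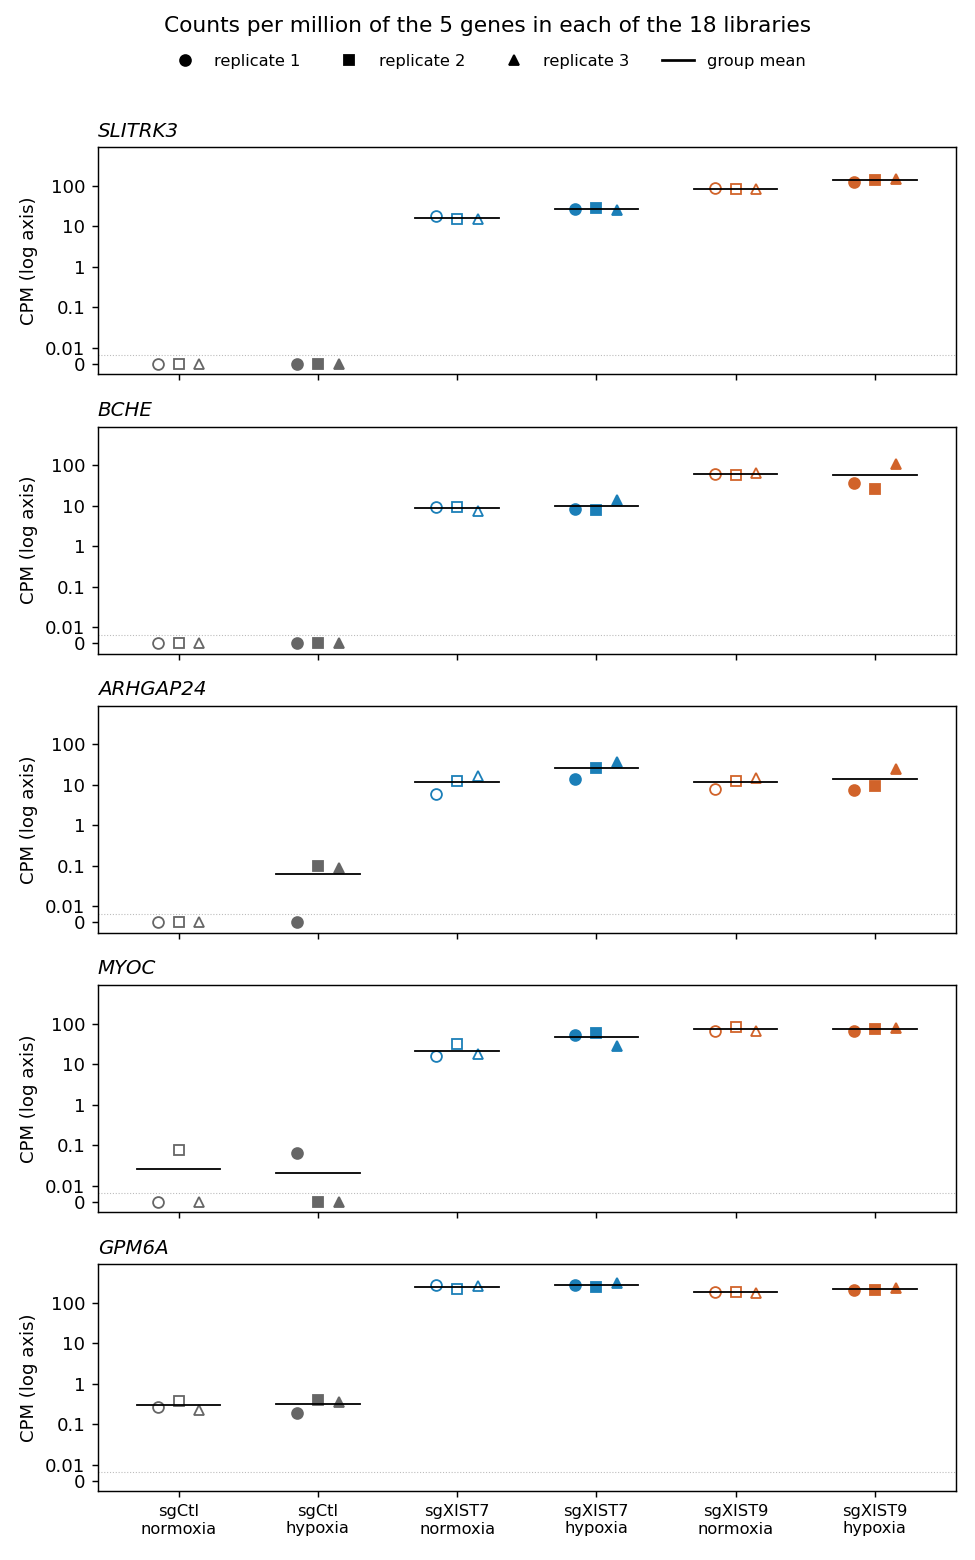
CPM of the 5 genes in each of the 18 libraries on a log axis, with libraries without a count drawn on the line marked 0 under the dotted line. Open symbols are normoxia, filled symbols hypoxia, the shape gives the replicate number and bars are group means (n = 3). The sgCtl libraries lie at or near 0 and the KD libraries between 6.05 and 319 CPM, with the widest spread for BCHE in sgXIST9 hypoxia (26.5 to 109 CPM).

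SLITRK3 had the smallest coefficient of variation of the 5 genes in 3 of the 4 KD groups, 1.3% to 7.99%. In sgXIST9 hypoxia it had 9.43%, above GPM6A (6.78%) and MYOC (9.25%). In sgXIST7 it was at 17.7, 15.7 and 15.3 CPM in normoxia and at 26.3, 28.2 and 24.9 CPM in hypoxia. In sgXIST9 it was at 87.3, 85.1 and 85.7 CPM in normoxia and at 123, 139 and 149 CPM in hypoxia. The 4 groups do not overlap, and their order was sgXIST7 normoxia, sgXIST7 hypoxia, sgXIST9 normoxia and sgXIST9 hypoxia. In hypoxia SLITRK3 exceeded the limit of 3 counts per sgCtl library at least 132-fold with sgXIST7 and at least 684-fold with sgXIST9. In hypoxia it was lower in sgXIST7 than in sgXIST9 by a log2 fold change of -2.37 (SE 0.11, edgeR adjusted p = 1.2e-08), a 5.18-fold difference of the means, and the ratio in normoxia was 5.30.

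SLITRK3 also rose in hypoxia in both clones by nearly the same factor. The fold was 1.63 in sgXIST7 (log2 fold change 0.71, SE 0.11, edgeR adjusted p = 1.0e-04) and 1.60 in sgXIST9 (0.67, SE 0.11, adjusted p = 1.2e-04). Both changes passed the p threshold and stayed under the fold threshold, so that neither was called. The difference of both responses was -0.03 (95% interval -0.36 to 0.29, edgeR adjusted p = 0.95). Without the replicate 3 hypoxia libraries the log2 fold changes were 0.76 and 0.62.

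BCHE was likewise higher in sgXIST9. In sgXIST7 it was at 9.47, 9.22 and 7.58 CPM in normoxia and at 8.07, 7.79 and 13.8 CPM in hypoxia. In sgXIST9 it was at 59.2, 58.4 and 64.3 CPM in normoxia and at 37.2, 26.5 and 109 CPM in hypoxia. The clones do not overlap, but within each clone hypoxia overlaps normoxia, and replicate 3 is the highest of the hypoxia libraries in both clones. Over the sgCtl limit BCHE stood at least 49.3-fold higher in sgXIST7 hypoxia and at least 287-fold in sgXIST9 hypoxia.

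Between the clones in hypoxia BCHE had a log2 fold change of -2.56 (SE 0.43, edgeR adjusted p = 0.0014), and the ratio of the means was 5.83 against 6.92 in normoxia. The call was lost without the sgXIST7 hypoxia replicate 2 (-2.41, edgeR adjusted p = 0.011), and without the sgXIST9 hypoxia replicate 3 the value was -1.71 (adjusted p = 2.7e-04). Hypoxia against normoxia showed no call in either clone (0.15, 95% interval -0.78 to 1.08, and -0.08, interval -0.93 to 0.78). That comparison rests on replicate 3: without the replicate 3 hypoxia libraries BCHE fell in sgXIST9 by 0.92 on the log2 scale (edgeR adjusted p = 9.1e-05), short of the fold threshold, and its mean there was 31.8 CPM in place of 57.7. The same libraries had the highest mean log2 CPM over the 10 hypoxia genes within their group (7.16 against 6.84 and 6.63 in sgXIST9, 7.43 against 7.02 and 7.37 in sgXIST7), and the part of this in the BCHE values was not tested.

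ARHGAP24 was the lowest of the 5 genes per kb of exon and had the largest coefficient of variation in 3 of the 4 KD groups. The exceptions were BCHE per kb in sgXIST7 hypoxia (3.98 against 4.40 CPM per kb) and the variation of BCHE in sgXIST9 hypoxia (78.2% against 70.3%). In sgXIST7 it was at 6.05, 12.8 and 16.5 CPM in normoxia and at 13.9, 26.9 and 36.5 CPM in hypoxia. In sgXIST9 it was at 8.03, 12.48 and 15.01 CPM in normoxia and at 7.34, 9.21 and 25.1 CPM in hypoxia. All 4 KD groups overlap, and in each of them replicate 1 was lowest and replicate 3 highest, with 1.87-fold to 3.42-fold between them. The lower bounds of its fold over sgCtl in hypoxia were 128 with sgXIST7 and 69.2 with sgXIST9.

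Neither the clones in hypoxia nor hypoxia against normoxia gave a call for ARHGAP24 in the fit of all groups without a replicate term. Between the clones the means in normoxia were nearly equal, 11.8 ± 5.3 and 11.8 ± 3.5 CPM (SD, n = 3). In hypoxia the log2 fold change of sgXIST7 against sgXIST9 was 0.90 (95% interval -0.09 to 1.88, edgeR adjusted p = 0.20), and it was 1.31 without the replicate 3 hypoxia libraries (adjusted p = 0.074). Hypoxia against normoxia gave 1.12 in sgXIST7 (SE 0.46, adjusted p = 0.049) and 0.22 in sgXIST9 (SE 0.47, adjusted p = 0.71).

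MYOC was higher in sgXIST9 in normoxia and approached that level in sgXIST7 in hypoxia. In sgXIST7 it was at 16.0, 31.2 and 18.2 CPM in normoxia and at 54.1, 57.5 and 28.1 CPM in hypoxia. In sgXIST9 it was at 66.2, 85.2 and 65.7 CPM in normoxia and at 66.8, 73.9 and 80.4 CPM in hypoxia. The sgXIST9 libraries all lie above those of sgXIST7, and replicate 3 of sgXIST7 in hypoxia lies within the range of sgXIST7 in normoxia. Hypoxic cells held at least 232 times the sgCtl limit of MYOC with sgXIST7 and at least 367 times with sgXIST9.

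A replicate term in the fit added ARHGAP24 to the calls between hypoxia and normoxia in sgXIST7. Without that term MYOC was the only gene of the 5 called there, while 15.1% of all genes tested rose. Its log2 fold change was 1.11 (SE 0.26, edgeR adjusted p = 0.0014), from 21.8 ± 8.2 to 46.6 ± 16.1 CPM (SD, n = 3), and the exact two-sided permutation test gave p = 0.2, where 3 against 3 libraries cannot go below 0.1. The call was lost on leaving out hypoxia replicate 1 (1.00), hypoxia replicate 2 (0.94), normoxia replicate 1 (0.93) or normoxia replicate 3 (0.99) of sgXIST7, and when only these groups were fitted (1.11, edgeR adjusted p = 0.012). Without hypoxia replicate 3 libraries it was 1.38. In sgXIST9 no gene of the 5 was called (0 by edgeR and DESeq2, 1 with an unadjusted p under 0.05), while 14.7% of all genes rose, and MYOC had 0.03 (95% interval -0.50 to 0.55). The test of the difference between both responses gave -1.08 (SE 0.36, unadjusted p = 0.0076, edgeR adjusted p = 0.14), so that a different response of the clones was not shown. None of the 5 genes was called in that test by edgeR or DESeq2, 1 had an unadjusted p under 0.05, and 0.167% of all genes were called.

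GPM6A was by far the most abundant of the 5, also per length, with 58.0 ± 7.1 CPM per kb of exon in sgXIST7 in normoxia against 2.01 ± 0.91 for ARHGAP24 (SD, n = 3). In sgXIST7 it was at 284, 222 and 263 CPM in normoxia and at 283.5, 249.9 and 319 CPM in hypoxia. In sgXIST9 it was at 191, 184 and 178 CPM in normoxia and at 214, 205 and 234 CPM in hypoxia. Here sgXIST7 was the higher clone, and the clones do not overlap in hypoxia. The means in hypoxia were 908 times the sgCtl trace with sgXIST7 and 696 times with sgXIST9. Between the clones in hypoxia the log2 fold change was 0.38 (95% interval 0.13 to 0.64, edgeR adjusted p = 0.033), and hypoxia against normoxia gave 0.15 (interval -0.10 to 0.40) and 0.24 (interval -0.01 to 0.49), so that GPM6A was called in neither.

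Between the clones in hypoxia, SLITRK3 and BCHE were thus the called genes, both lower in sgXIST7, as were 2.4% of all genes tested. MYOC had -0.65 (SE 0.25, edgeR adjusted p = 0.080), and -0.33 without the replicate 3 hypoxia libraries. ARHGAP24 and GPM6A had positive values, and a difference under the thresholds does not show that the clones act alike. In normoxia, as a description, the ratios of sgXIST9 to sgXIST7 means were 5.30 for SLITRK3, 6.92 for BCHE, 1.01 for ARHGAP24, 3.32 for MYOC and 0.719 for GPM6A. XIST itself was far lower in sgXIST7 (0.117 ± 0.131 CPM in hypoxia) than in sgXIST9 (23.3 ± 8.1 CPM, SD, n = 3).

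**Figure D2:**
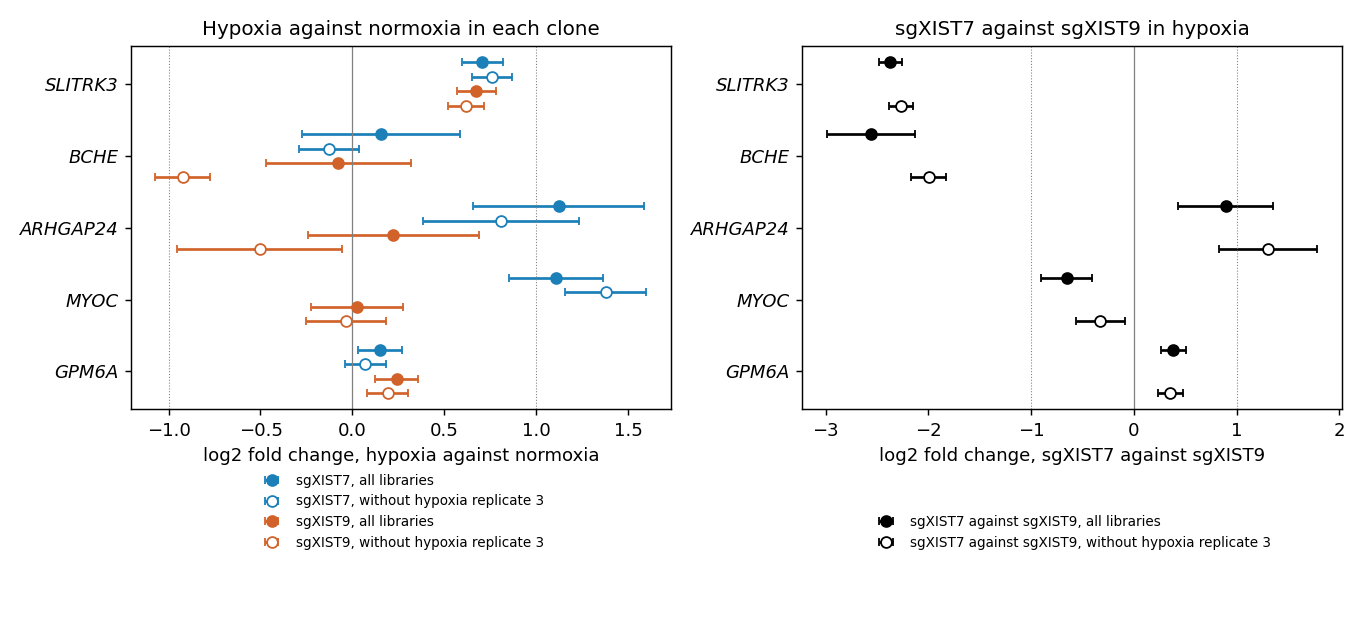
Log2 fold changes of the 5 genes from edgeR with bars of 1 SE, on the left for hypoxia against normoxia in each KD clone and on the right for sgXIST7 against sgXIST9 in hypoxia. Filled symbols use all libraries, open symbols leave out the replicate 3 hypoxia libraries, and dotted lines mark the fold threshold. SLITRK3 lies near 0.7 in both clones, BCHE in sgXIST9 moves from -0.08 to -0.92, and SLITRK3 and BCHE lie near or below -2.00 on the right.

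Neighbours within 1000000 bases were read next, since SLITRK3 and BCHE adjoin. Leaving out the 5 genes, 49 distinct genes lay within that distance, 7 without a count in any library, and 25 passed the filter. In hypoxia 8 of the 25 were called higher in sgXIST7 (32.0%) and 8 in sgXIST9 (32.0%), against 7.83% and 6.14% of all genes tested. In the same comparisons 1 and 2 were called lower. The median log2 fold changes were 0.47 and 0.52, against -0.02 and -0.01 over all genes tested. Without the replicate 3 hypoxia libraries 7 and 7 of the 25 were called higher and 1 and 1 lower, with the calls of LINC01322 in sgXIST7 and of WDFY3-AS2 and PRRX1 in sgXIST9 lost (edgeR adjusted p = 0.012, 0.015 and 0.014). In that fit 1485 and 1153 of all 15278 genes tested were called higher. Neighbours share a locus and are not independent of each other. LINC01322, LOC101928590, MAPK10 and MIR3120 passed the filter on low counts only through KD groups, and PRRX1 only through sgXIST7. They therefore had to stand higher there than in sgCtl. ASB5, called lower in both clones, passed it only through sgCtl. The calls of these genes against sgCtl, which are part of these counts, are a description.

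On chromosome 3, 1 tested gene lay between SLITRK3 and BCHE. LINC01322, a long noncoding RNA gene that starts 9851 bases from SLITRK3 on the other strand, had no count in any sgCtl library. Its means were 0.0763 and 0.975 CPM in sgXIST7 and sgXIST9 in normoxia, and 0.254 ± 0.171 and 1.45 ± 0.09 CPM in hypoxia (SD, n = 3). In sgXIST7 this rested on 3, 1 and 1 counts in normoxia, at or under the limit and not called, and on 5, 2 and 5 counts in hypoxia. In hypoxia it was called higher than sgCtl in both clones (edgeR), and lower in sgXIST7 than in sgXIST9 (log2 fold change -2.64, SE 0.44, edgeR adjusted p = 0.0013), as SLITRK3 and BCHE were. LINC01322 passed the filter on low counts only through sgXIST9, so that it had to stand higher there, and nothing is read from these calls. The next genes on the far side of SLITRK3, the intestinal sucrase-isomaltase gene SI and LINC01324, had at most 3 counts and 1 count in any library.

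Near GPM6A the picture was mixed. LOC101928590, which lies within the GPM6A interval on the opposite strand, rose with it, from 0.0165 ± 0.0287 CPM in sgCtl to 5.50 ± 1.77 in sgXIST7 and 1.77 ± 0.28 in sgXIST9 in hypoxia (SD, n = 3), and it also rose in hypoxia in sgXIST7 (log2 fold change 2.34, SE 0.36). The sources used here do not state whether the counting used strand, so that reads of GPM6A and LOC101928590 may not be told apart. WDR17, which starts 63150 bases away in the opposite direction, was higher in both clones in hypoxia (1.88, SE 0.18, and 1.29, SE 0.18). SPCS3, a subunit of the signal peptidase, passed the fold threshold narrowly in hypoxia (1.10 and 1.06). ASB5 was lower in both (-6.56 and -6.23), from 9.06 ± 6.22 CPM in sgCtl in hypoxia, a group in which it ranged from 2.66 to 15.1 CPM.

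Next to ARHGAP24 the kinase gene MAPK10 (JNK3), whose end lies 7744 bases from that of ARHGAP24 on the other strand, was higher in both clones in hypoxia, by 4.72 (SE 0.52) and 4.18 (SE 0.54) on the log2 scale. Its levels were low, 0.0539 ± 0.0502 CPM in sgCtl against 1.84 ± 0.28 and 1.26 ± 0.34 CPM in sgXIST7 and sgXIST9 (SD, n = 3). WDFY3-AS2 was also higher in both (1.49 and 1.53), and the other 6 tested genes near ARHGAP24 were not called in hypoxia. Around MYOC the nearest genes were not called: VAMP4 had 0.16 and -0.07 and PRRC2C -0.26 and -0.42 in hypoxia, and MYOCOS had at most 1 count in a library. Farther away MIR3120, which lies within DNM3OS on the other strand and within DNM3, so that its reads may be theirs, was higher in both clones in hypoxia (1.68 and 1.98), FMO4 in sgXIST9 only by call (1.02 and 1.34), and PRRX1, a transcription factor of mesenchymal cells, was higher in sgXIST7 (2.24) and lower in sgXIST9 (-3.50), with a difference of 5.74 between the clones (SE 0.64, edgeR adjusted p = 1.9e-05). MIR3120 passed the filter on low counts only through KD groups and PRRX1 only through sgXIST7, so that each had to stand higher there.

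**Figure D3:**
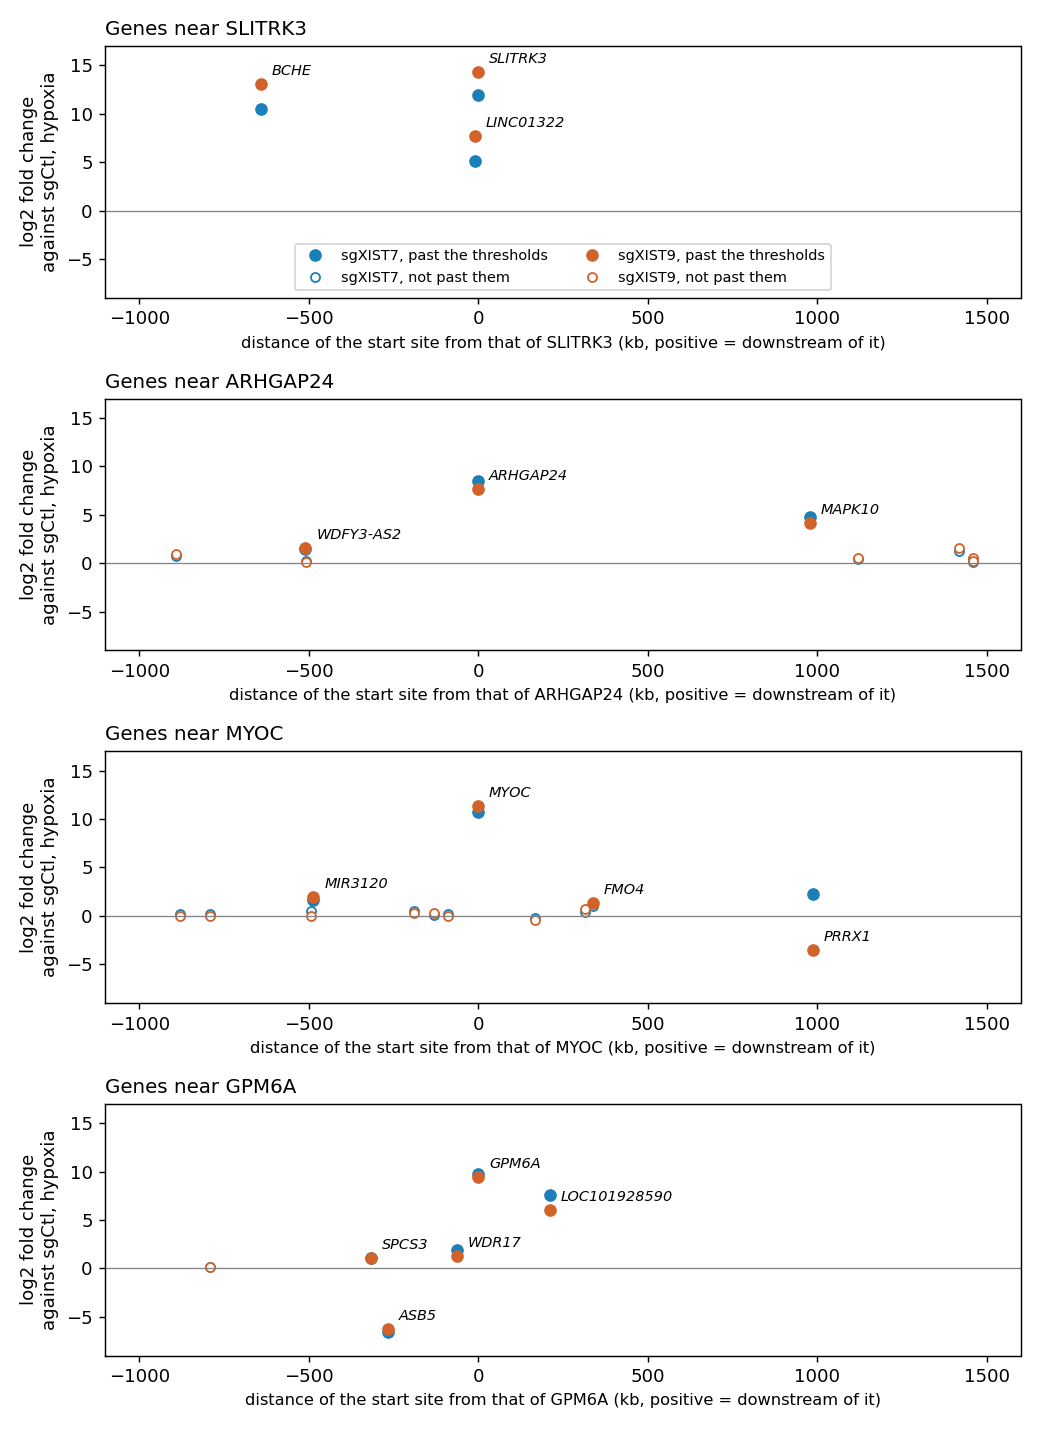
Log2 fold changes against sgCtl in hypoxia of the tested genes near each member, by the distance of their start site from that of the member in kb. Blue is sgXIST7, orange sgXIST9, and filled symbols passed the thresholds. LINC01322 and BCHE stand with SLITRK3 above 5. LOC101928590 (7.62 in sgXIST7 and 5.99 in sgXIST9) lies under GPM6A (9.78 and 9.40), and MAPK10 (4.72 and 4.18) under ARHGAP24 (8.52 and 7.62). The genes next to MYOC lie near 0. LINC01322, LOC101928590 and MAPK10 passed the filter on low counts only through KD groups, so that their values are a description.

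Most relatives of the 5 genes were not called higher with them. Of the other SLITRK genes, SLITRK5 was the only gene that passed the filter on low counts, with -0.37 and -0.63 in sgXIST7 and sgXIST9 against sgCtl in hypoxia, and SLITRK1, SLITRK2, SLITRK4 and SLITRK6 had at most 8 counts in a library. In the list of leucine-rich repeat adhesion genes and LAR receptors, 8 of 22 others passed the filter and 1 was called higher in each clone in hypoxia, with medians of 0.24 and -0.26. These were PTPRD, a LAR receptor that SLITRK3 binds, in sgXIST7 (2.73, SE 0.61) and FLRT2 in sgXIST9 (1.93). PTPRD was at 3.10 ± 2.53 CPM in sgCtl, 20.0 ± 9.0 in sgXIST7 and 2.09 ± 1.80 in sgXIST9 in hypoxia (SD, n = 3), and at or under 0.208 CPM on average in normoxia in all 3 lines.

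Among the cholinergic genes, 11 of 27 others passed the filter. ACHE, the acetylcholinesterase, was lower in both clones in hypoxia (-1.90, SE 0.37, and -1.54, SE 0.35), from 4.84 ± 1.92 CPM in sgCtl to 1.34 ± 0.52 and 1.69 ± 0.46 CPM (SD, n = 3). Against sgCtl in hypoxia, ACHE and BCHE, which was chosen for being higher, thus had opposite signs. ACHE was not called against sgCtl in normoxia. It was called higher in hypoxia than in normoxia in sgCtl (2.33), sgXIST7 (1.98) and sgXIST9 (1.88). The muscarinic receptor CHRM3 was lower in sgXIST7 (-1.12) and higher in sgXIST9 (4.25), and CHRM4 was higher in sgXIST7 (2.41). The medians of the list without BCHE were -0.06 and 0.18.

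Of the relatives of ARHGAP24, ARHGAP25 had at most 2 counts in a library, while ARHGAP22, which belongs to the same subfamily, was higher in both clones in hypoxia (1.46, SE 0.16, and 1.57, SE 0.16), from 2.73 ± 0.29 CPM to 7.47 ± 0.39 and 8.09 ± 1.30 CPM (SD, n = 3). Against sgCtl in normoxia ARHGAP22 had 0.89 in sgXIST7 and 0.80 in sgXIST9 and was not called. From normoxia to hypoxia it fell in sgCtl (-1.57), sgXIST7 (-1.01) and sgXIST9 (-0.80, not called). The partner of ARHGAP24, filamin A (FLNA), had 0.65 (edgeR adjusted p = 0.040) and -0.27 (adjusted p = 0.44) against sgCtl in hypoxia and was not called.

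Of the 12 other genes with an olfactomedin domain, 7 passed the filter, and in hypoxia 0 were called in sgXIST7 and 1, OLFML1, was higher in sgXIST9 (3.80). OLFM1 had -0.24 and -0.91 and OLFM2 had -1.19 and -0.72, none of them called, and OLFM3 and OLFM4 had at most 2 counts. In the proteolipid family GPM6B was lower in sgXIST9 in hypoxia (-1.50, SE 0.36) and had -0.80 in sgXIST7 (edgeR adjusted p = 0.072). In these clones GPM6B was at 0.981 ± 0.305 and 0.595 ± 0.242 CPM in sgXIST7 and sgXIST9 in hypoxia (SD, n = 3), far under GPM6A also per length (0.185 and 0.112 against 64.4 and 49.3 CPM per kb of exon).

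Other genes followed the same pattern over the 18 libraries, as a description. The genes with the highest Pearson correlation of log2 CPM with each member, other members left out, shared its contrast between sgCtl and KD groups and its libraries. PDZK1, a scaffold of membrane transporters, headed the list of SLITRK3 (r = 0.989) and MYOC (0.984), and ISLR that of BCHE (0.986). BARX2 was next for SLITRK3 (0.988), at 0.0258, 10.7 and 41.5 CPM in sgCtl, sgXIST7 and sgXIST9 in normoxia. For ARHGAP24 these were PIGT (0.986), the collagen gene COL1A2 (0.986) and CDC42BPG (0.977). PIGT had group means of 31.0 and 34.5 CPM in sgCtl in normoxia and hypoxia, against 53.8 to 62.4 CPM in the KD groups. For GPM6A these were the growth factor gene PDGFC (0.996), PRICKLE1 (0.984) and the transcription factor gene ZIC1 (0.982), all 3 higher on average in sgXIST7 than in sgXIST9, as GPM6A was. With r above 0.95 there were 21 to 39 genes for a member.

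Of the markers of other cell types, some moved with the 5 genes and some against them. Of 13 neuronal markers, MAP2, which was also alike to MYOC (r = 0.983), went from 0.142 ± 0.204 CPM in sgCtl to 33.5 ± 7.9 and 33.6 ± 1.7 CPM in sgXIST7 and sgXIST9 in hypoxia (SD, n = 3), but SNAP25, STMN2, ELAVL4, DCX, NEFL and GAP43 had at most 1 count in a library. SYP went the other way in hypoxia, from 8.4 CPM in sgCtl to 3.8 and 5.9 CPM in sgXIST7 and sgXIST9. The summed level of the neuronal list was 162 to 227 CPM in sgCtl, 190 to 246 in sgXIST7 and 150 to 205 in sgXIST9 in hypoxia, most of it TUBB3. Of 8 fibroblast markers, COL1A2 went from 0.213 ± 0.077 to 189 ± 102 and 45.5 ± 21.2 CPM, and COL1A1 from 0.163 to 2.06 and 5.21 CPM. DCN went the other way, from 1.56 to 0.045 and 0.099 CPM, as did LUM, from 0.356 to 0.090 and 0.045 CPM. COL3A1 was abundant in all groups (523 to 1018 CPM on average). The fibroblast list summed to 747 to 1032 CPM in sgCtl, 885 to 1297 in sgXIST7 and 443 to 706 in sgXIST9 in hypoxia. The part of these markers in the values of the 5 genes was not tested.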

How the data were processed

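RNA-seq of 18 libraries (6 groups of 3) was analysed. Per the labels and the study's methods, the authors depleted ribosomal RNA from Trizol extracts, made TruSeq stranded total RNA libraries, sequenced paired ends, trimmed with Trimmomatic, checked with FastQC, aligned to hg38 with HISAT2 and counted with featureCounts; versions are not given in the sources used here. The deposited values are whole-number read counts per gene, without normalization; 2 broken lines with 0 counts were left out of 28279, which leaves 28277 genes. Libraries held 11794375 to 24906936 counts.

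Counts were tested with edgeR 4.0.16 (limma 3.58.1, R 4.3.3; glmQLFit with robust estimation, glmQLFTest) in 1 fit of 6 groups with TMM factors, on 14938 genes kept by filterByExpr (minimum count 10, minimum total 15), with a prior count of 0.125. The Benjamini-Hochberg adjustment ran over all genes tested, and a call needed an adjusted p under 0.01 with a log2 fold change past 1 in either direction. Folds against sgCtl groups at or under 3 counts in each library are lower bounds, the KD mean over the mean CPM worth 3 counts. The fit was first tested on simulated counts. DESeq2 1.42.0, other scaling and filters, subsets of the libraries and a replicate term were tried.

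The 5 genes, the gene lists and the rules for named genes were chosen with earlier results of these data known. Named were the 5 genes, XIST, the next gene in the order, neighbours within 1000000 bases that were called or adjacent, the 3 genes most alike per member by Pearson r of log2 CPM (prior count 2), list members called in both clones in hypoxia and close relatives; PTPRD, FLNA and list members called in a single clone were named after their values were seen. Genes listed at places far apart were not taken as neighbours, and 1 gene list and 1 relative are not reported here.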

Additional observations from a re-analysis of the deposited data

Results flagged for a closer look

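In hypoxia the differences of the 2 KD clones from sgCtl were unequal by the test between the clones themselves (edgeR, sgXIST7 against sgXIST9) for SLITRK3, with a log2 fold change of -2.37 (SE 0.11, adjusted p = 1.2e-08), and for BCHE, with -2.56 (SE 0.43, adjusted p = 0.0014). Among their neighbours the same held for LINC01322 between these genes (-2.64, SE 0.44, adjusted p = 0.0013), for LOC101928590 within GPM6A (1.63, SE 0.34, adjusted p = 0.0036) and for PRRX1 near MYOC (5.74, SE 0.64, adjusted p = 1.9e-05), the last with opposite signs against sgCtl. LINC01322 passed the filter on low counts only through sgXIST9 and PRRX1 only through sgXIST7, so that nothing is read from their tests. Groups of 3 libraries were not searched for single outlying libraries.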

How the results depend on the processing

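As a description, the 5 genes passed the thresholds against sgCtl in hypoxia in both clones under all alternatives run: DESeq2, RLE scaling, other filters, an adjusted p threshold of 0.05, fits of only the groups compared, the replicate block, the replicate 3 hypoxia libraries left out, and each library left out. Between the clones in hypoxia 2 genes were called, and 1, SLITRK3, without a filter on low counts or when only the groups compared were fitted, where BCHE had edgeR adjusted p = 0.015 and 0.029. Leaving out each library in turn gave 1 to 2. For hypoxia against normoxia in sgXIST7, 1 gene was called, 2 at an adjusted p of 0.05 (MYOC and ARHGAP24), 0 when only the groups compared were fitted, and 0 to 1 on leaving out each library. Replicate numbers did not meet the rule for pairing, every same-numbered pair above 0.1: residuals of libraries with the same number had a median correlation of 0.0454 (from -0.0727 to 0.566), and 15 of 45 pairs were above 0.1, against a median of -0.0284 and 4 of 90 for other numbers. The replicate block raised the calls in sgXIST7 from 1 to 2, with ARHGAP24 at 1.14 (edgeR adjusted p = 4.0e-04), and changed no other count of the 5 genes. No direction that passed the thresholds reversed. Over all genes, the number called for the difference of both hypoxia responses ranged from 6 to 289 over the alternatives, against 25, and fitting only the groups compared gave 1113 in place of 2093 calls for sgXIST7 and 641 in place of 1423 for sgXIST9 against sgCtl in hypoxia. Between the clones in hypoxia it gave 323 in place of 666, and leaving out the sgXIST7 hypoxia replicate 2 gave 434. Within 500000 bases, 7 and 8 of 15 tested neighbours were called higher in hypoxia in sgXIST7 and sgXIST9 (46.7% and 53.3%), against 7.83% and 6.14% of all genes tested. These neighbours include LINC01322, LOC101928590, MAPK10 and MIR3120, which passed the filter only through KD groups, so that their calls are a description. The neighbour counts without replicate 3 hypoxia libraries were added after seeing the data. The causes of these changes were not tested. Depth limits what is seen to 3 counts, or 0.130 to 0.266 CPM by library.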
